A study of Mus musculus and Homo sapiens with 9 samples.

Results

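The 38 genes described here encode proteins of homologous recombination, of the Fanconi anemia pathway and of the ATM and ATR checkpoints. They come from a list of symbols drawn up with earlier results of these data known, and all 38 were found in both gene tables of the series, among 56105 annotated human genes and 42462 annotated mouse genes. Of the mouse genes, 36 carried the human symbol in mouse case, whereas Mre11 and Tp53bp1 are annotated as Mre11a and Trp53bp1. All 38 passed the filter on low counts in both tables, in which 15819 human and 15350 mouse genes were tested, and no member was at 0 counts in any library.

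The study asked how cells respond to the loss of IRF2BP2, a transcriptional cofactor. RNA-seq was performed on J.gamma1 cells, an established human line of T-cell acute lymphoblastic leukemia (T-ALL) derived from Jurkat cells, with 2 libraries carrying a control hairpin (sh-NC) and 2 carrying a hairpin against IRF2BP2 (sh-IRF2BP2). It was also performed on CD3+ T cells sorted magnetically from mouse spleens, with 2 libraries of Vav-iCre+/-;Irf2bp2fl/fl mice (Irf2bp2-KO) and 3 control libraries. The labels call these controls wild type, whereas the paper gives them as Vav-iCre-/-;Irf2bp2fl/fl, so that on its account all mice carried the floxed alleles. The labels of the libraries give neither the age of the mice nor the hairpin used. The results in J.gamma1 rest on 1 cell line, and Vav-iCre acts in the whole blood lineage and not in T cells alone. Nothing in the labels says that the libraries of a group came from separate cultures or animals, so the p-values measure the spread between these libraries, which may be technical.

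Homologous recombination repairs breaks of both DNA strands by copying the sister chromatid, and is used mainly in S and G2 phase, when a sister is present. MRE11, RAD50 and NBN bind the break and, with RBBP8 (CtIP), EXO1 and BLM, resect its ends. BRCA1 with its partner BARD1, PALB2 and BRCA2 then act on the resected strand, and a further group of proteins, with XRCC2, XRCC3, RAD52 and the RAD54 proteins among them, serves the exchange of strands with the sister. The Fanconi anemia proteins unlock interstrand crosslinks, and the kinases ATM, ATR, CHEK1 and CHEK2 stop the cell cycle while damage is present. Many of these genes are transcribed by E2F factors when cells enter S phase, and resting T cells are known to hold little of their RNA.

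The knockdown and the knockout were visible in the targeted gene. Levels are given as CPM, read counts scaled to a common library size after TMM normalization. IRF2BP2 (ENSG00000168264) was at 204 and 199 CPM with sh-NC and at 79.0 and 93.8 CPM after knockdown, a log2 fold change of -1.22 (SE 0.131, adjusted p = 0.00229 by the quasi-likelihood test of edgeR with Benjamini-Hochberg adjustment). Mouse Irf2bp2 (ENSMUSG00000051495) had 4145, 4594 and 1915 counts in the controls and 0 and 0 in the Irf2bp2-KO libraries. Total counts per library lay between 16668577 and 37177523, and control 3 was the shallowest. A gene was called when its adjusted p was under 0.05 and its log2 fold change reached 0.5 in size in J.gamma1 cells or 1 in mouse cells.

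The levels of these genes were set side by side as CPM per kilobase of merged exons, a measure that understates genes with many annotated long transcripts. In sh-NC cells TOPBP1, the activator of ATR, stood at the top with a mean of 32.1 CPM per kilobase, followed by the resection genes EXO1 with 29.6 and RBBP8 with 28.6 and by the strand exchange genes RAD51AP1 with 26.2 and RAD54L with 24.04. FANCL, the ubiquitin ligase of the Fanconi pathway, was at the bottom with 0.514 CPM per kilobase, over 37977 annotated exon bases. In CPM it was not the lowest, with a mean of 19.5 against 11.4 for FANCB. In control mouse T cells the order was another one. The checkpoint scaffold Mdc1 led with a mean of 17.1 CPM per kilobase, followed by the kinase Atm with 12.6, Nbn with 11.9 and Topbp1 with 10.7, whereas Rad51b had 0.0523. The controls differed in this order, with Atm between 5.07 and 19.5 CPM per kilobase. BRCA1 stood at percentile 73.0 of the per-kilobase levels of all genes tested in J.gamma1 cells, and Brca1 at percentile 25.1 in control mouse T cells. For BRCA2 the percentiles were 59.9 and 19.8, for FANCD2 75.01 and 19.4, and for RAD51AP1 89.1 and 22.1. The break sensors NBN, at percentiles 53.8 and 70.4, and ATM, at 33.6 and 71.7, had the opposite order. Annotated exon lengths enter this contrast, with 19417 bases for NBN and 2533 for Nbn, and 39184 for ATM and 10338 for Atm. In CPM, NBN had a mean of 98.4 with sh-NC and Nbn one of 30.1 in mouse controls. For ATM and Atm these means were 66.9 and 130 CPM.

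In J.gamma1 cells, BARD1 fell with knockdown of IRF2BP2, and the log2 fold changes of the other 37 members lay between -0.57 and 0.43. Of the 38 genes, 26 had a log2 fold change below 0, where 49.4% of all genes tested did so, and the median was -0.12, against 0.01 over all genes tested. BARD1 was the only member called lower, against 5.01% of all genes tested, and 0 members were called higher, against 5.46%. With no fold threshold 2 members, BARD1 and RAD54L, passed in the lower direction (5.32% of all genes) and 0 in the higher (5.83%), and at an unadjusted p under 0.05 the counts were 6 (13.4%) and 1 (14.3%). DESeq2 called BARD1 lower and 0 members higher. For 18 members both sh-IRF2BP2 libraries lay below both sh-NC libraries, where 28.7% of all genes did so, and for 2 members, FANCM and MDC1, both lay above, where 29.6% did so. The other 18 members overlapped between the groups.

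**Figure D1:**
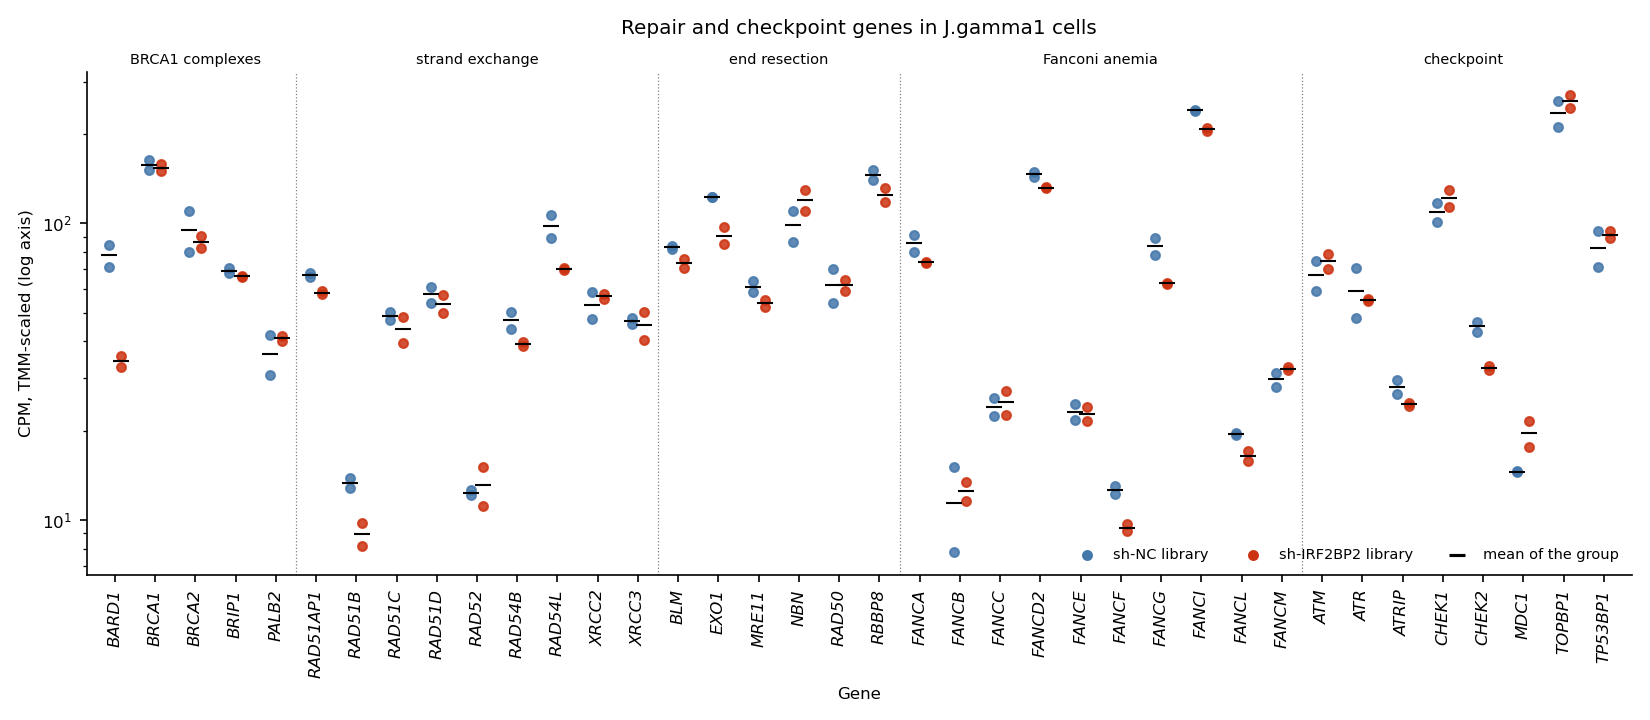
Level of each gene in the J.gamma1 libraries (CPM on TMM-scaled library sizes, log axis), grouped by role, with 1 point per library and a bar at the mean of each group. The sh-IRF2BP2 points of BARD1, at 35.7 and 32.7 CPM, sit well under its sh-NC points, while most other pairs of groups touch or lie close.

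BARD1 (ENSG00000138376, hg38 chr2:214725646-214809683, minus strand) encodes the RING partner without which BRCA1 is unstable and lacks ubiquitin ligase activity. It was at 84.8 and 71.3 CPM with sh-NC and at 35.7 and 32.7 CPM in the knockdown. Both knockdown libraries were thus below both controls by far more than the libraries of a group differed. The log2 fold change was -1.19 (SE 0.136, adjusted p = 0.00285), a 2.28-fold lower level. BARD1 is also one of the genes that the study picked for qPCR after RNA-seq, so its place here is not an independent choice. Its partner BRCA1 did not follow it, with 164 and 152 CPM against 159 and 149.7 CPM and a log2 fold change of -0.03 (SE 0.118, adjusted p = 0.89).

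The other members of the BRCA1 complexes were not called. BRCA2, whose loss leaves cells unable to repair breaks from the sister, was at 110.5 and 80.3 CPM with sh-NC and at 82.8 and 90.7 CPM with sh-IRF2BP2 (log2 fold change -0.14, SE 0.163, adjusted p = 0.64). PALB2, which joins BRCA1 to BRCA2, had a log2 fold change of 0.17 and the helicase BRIP1 one of -0.07. BRCA2 and PALB2 overlapped between the groups, and in each the spread between the sh-NC libraries exceeded that between the sh-IRF2BP2 libraries.

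Among the strand exchange genes, 7 of 9 had a log2 fold change below 0, with a median of -0.15, and 0 were called. Over all genes tested 5.01% were called lower and 5.46% higher. RAD54L, a motor protein that moves along DNA during strand exchange, was at 89.5 and 107 CPM with sh-NC and at 69.9 and 70.5 CPM in the knockdown. Its adjusted p was 0.0491, but its log2 fold change of -0.48 (SE 0.127) fell short of 0.5 in size. An opposite-strand gene, LRRC41, covers 19.9% of its exon bases, and the strand setting of the counting is not given in the sources used here. RAD51B had the largest log2 fold change of the members not called, with 12.8 and 13.8 CPM against 8.17 and 9.74 CPM (-0.57, SE 0.195, adjusted p = 0.10). RAD51AP1, which promotes strand exchange, was at 65.9 and 68.1 CPM and at 57.7 and 58.9 CPM (-0.20, SE 0.113, adjusted p = 0.29). RAD54B had a log2 fold change of -0.27 and shares 66.0% of its exon bases with FSBP on the same strand, so its counts are uncertain. RAD51C, RAD51D, XRCC2, XRCC3 and RAD52 overlapped between the groups. KLC1 on the opposite strand covers 76.7% of the exon bases of XRCC3, so its counts are uncertain too.

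End resection genes had a median log2 fold change of -0.18, with 5 of 6 below 0 and 0 called (5.01% lower and 5.46% higher over all genes tested). EXO1, the long-range resection nuclease, was at 122 and 122 CPM with sh-NC and at 96.9 and 85.1 CPM in the knockdown, a log2 fold change of -0.43 with an adjusted p of 0.0605. BLM, the helicase that works with EXO1 and also dissolves recombination intermediates, was at 84.1 and 81.9 CPM and at 70.9 and 76.0 CPM (-0.18, SE 0.113, adjusted p = 0.35). NBN was the only resection gene above 0, at 0.29. RAD50 had a log2 fold change of -0.0046, but 76.9% of its exon bases are shared with another annotated gene on the same strand, so its counts are uncertain.

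Of the 10 Fanconi anemia genes, 7 had a log2 fold change below 0, the median was -0.18 and 0 were called. Calls over all genes tested were 5.01% lower and 5.46% higher. In 6 of them, FANCA, FANCD2, FANCF, FANCG, FANCI and FANCL, both sh-IRF2BP2 libraries lay below both sh-NC libraries, beside 28.7% of all genes tested. FANCD2, the protein that the pathway monoubiquitinates at a crosslink, was at 149 and 144 CPM with sh-NC and at 132 and 131 CPM with sh-IRF2BP2 (-0.15, SE 0.113, adjusted p = 0.42). FANCA, a subunit of the core complex, was at 91.4 and 80.3 CPM and at 73.4 and 74.3 CPM (-0.22, SE 0.120, adjusted p = 0.29), and ZNF276 on the opposite strand covers 19.6% of its exon bases. The core complex subunits FANCG, at -0.41, and FANCF, at -0.43, had the lowest log2 fold changes of this group. FANCB had the widest spread between the sh-NC libraries relative to its mean, with 15.1 and 7.80 CPM.

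The checkpoint genes had the sole positive median, 0.14, with 5 of 8 above 0 and 0 called (5.01% lower and 5.46% higher over all genes tested). CHEK2, the kinase downstream of ATM, was at 43.2 and 46.6 CPM with sh-NC and at 32.1 and 33.1 CPM with sh-IRF2BP2, the groups not overlapping (-0.46, SE 0.126, adjusted p = 0.0538). MDC1, the scaffold that spreads the ATM signal along chromatin, was at 14.4 and 14.6 CPM and at 21.5 and 17.6 CPM (0.43, SE 0.172, adjusted p = 0.15). ATM, ATR, CHEK1, TOPBP1 and TP53BP1 overlapped between the groups, with log2 fold changes between -0.10 and 0.16. TUBGCP4 on the opposite strand covers 28.8% of the exon bases of TP53BP1.

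BARD1 was called under each of the 15 alternatives in J.gamma1 cells. Without sh-NC 1, RAD54L, FANCG and CHEK2 were called lower as well, which made 4 members, while the genes called lower over the whole table rose from 793 to 1143. With upper-quartile scaling RAD54L and CHEK2 joined BARD1, which made 3, with 946 genes called lower over the whole table, and this scaling moved the median of all genes to -0.05. The library sh-NC 1 was higher than sh-NC 2 in the longest of 4 bins of exon length (median log2 ratio 0.17) and lower in the shortest (-0.12), and 17 members belong to the longest bin. With that trend on length removed, an alternative added after the data were seen, the median of the members was -0.22 and BARD1 remained the sole call.

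In the 3' UTR, a short word was looked up because an earlier scan of these same data had found it in genes that were lower with sh-IRF2BP2. Among 12573 genes tested with an annotated 3' UTR, 8.76% hold AGGTCTA or GGTCTAA, and 18.7% of these were called lower. The share called lower was 8.96% with the core GGTCTA alone and 4.36% with none of these words. Since the word came from genes lower in these same data, the higher share follows from that choice and is no test of it. Of the 38 members 3 hold GGTCTAA, namely BARD1, ATM and RAD50. The sites are printed from hg38 with the annotation of GENCODE 44, since the only member called lower is among them, and capitals mark the word.
BARD1: gagtatttGGTCTAAatgtgccac
ATM: ttaaatatGGTCTAAagcaaataa
RAD50: caagtgatGGTCTAAtacaactcc
They lie at chr2:214728210-214728233 (minus strand), chr11:108368852-108368875 (plus strand) and chr5:132644738-132644761 (plus strand). ATM, at 74.5 and 59.4 CPM with sh-NC and at 70.0 and 79.0 CPM with sh-IRF2BP2, was not called. RAD50 was not called either, with a log2 fold change of -0.0046 that ran from -0.18 to 0.19 without 1 library. Its counts are uncertain, since 76.9% of its exon bases are shared with another annotated gene on the same strand. A match is a description of the letters, and its part in the level of BARD1 was not tested.

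In mouse T cells without Irf2bp2, 8 members were called higher, Brca1, Bard1, Brca2, Rad51ap1, Rad54l, Blm, Fanca and Fancd2, and 0 were called lower. They were 2.67-fold (Blm) to 4.43-fold (Brca1) higher in the knockout. Over all genes tested 2.47% were called higher and 0.111% lower. With no fold threshold the counts of members were the same 8 and 0 (2.68% and 0.15% of all genes), and at an unadjusted p under 0.05 they were 16 (10.2%) and 0 (6.01%). Of the 38 members 33 had a log2 fold change above 0, where 47.9% of all genes tested did so, with a median of 0.50 against -0.02 over all genes tested. In 26 members both Irf2bp2-KO libraries lay above all 3 controls, where 18.2% of all genes tested did so, and 12 members overlapped. These are bulk libraries, in which more cells that express a gene and more of its RNA per cell cannot be told apart.

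**Figure D2:**
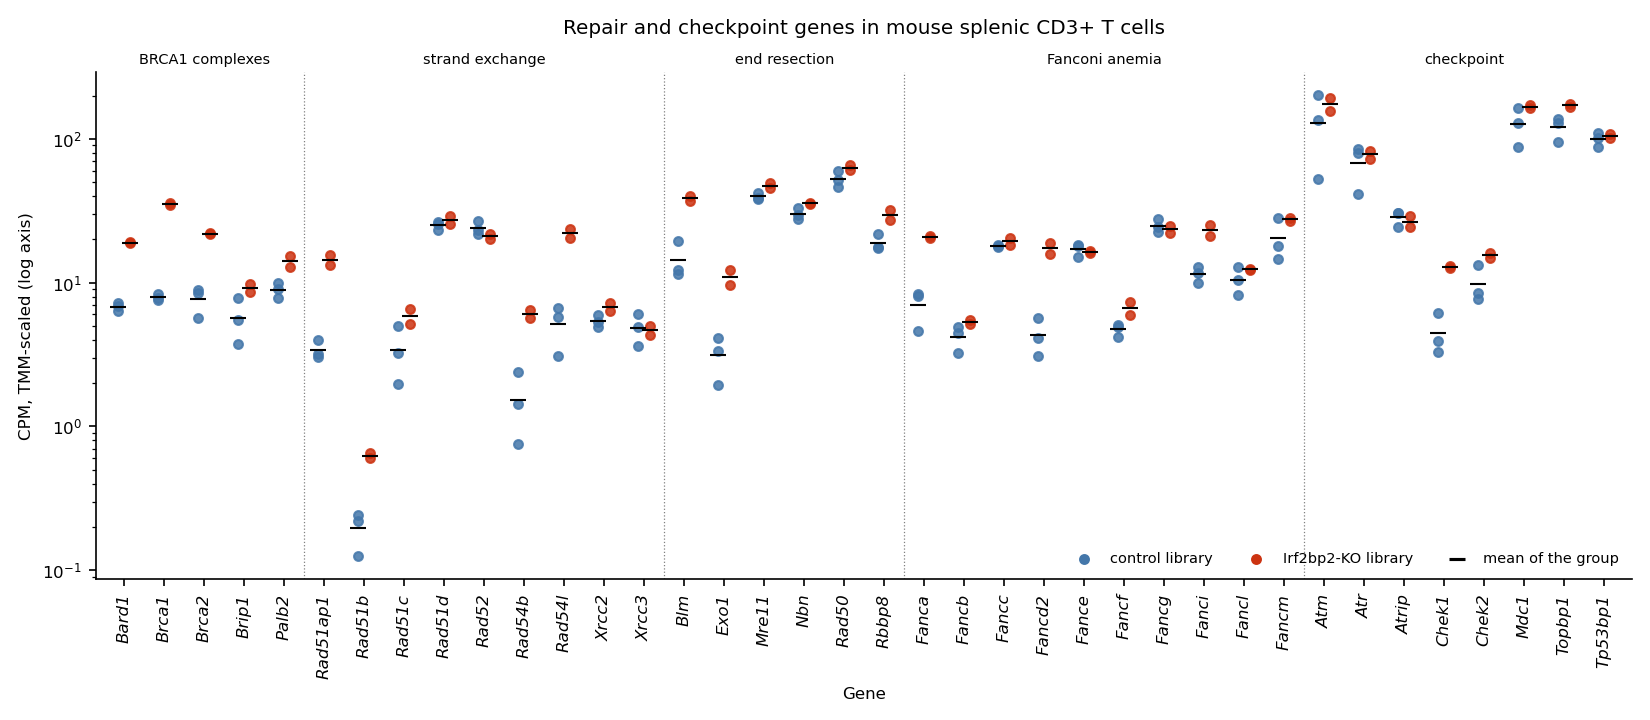
Level of each gene in the mouse CD3+ T cell libraries (CPM on TMM-scaled library sizes, log axis), grouped by role, with 1 point per library and a bar at the mean of each group. The Irf2bp2-KO points of Brca1, at 35.6 and 34.7 CPM, lie far above its control points at 7.57 to 8.40 CPM, whereas the groups of most checkpoint genes overlap.

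Brca1 (ENSMUSG00000017146, mm10 chr11:101488764-101551955, minus strand) had the largest change. It was at 8.40, 7.80 and 7.57 CPM in controls and at 35.6 and 34.7 CPM in Irf2bp2-KO libraries, 7.92 ± 0.426 (SD, n = 3) and 35.1 ± 0.628 (SD, n = 2). The 3 controls and the 2 knockout libraries each lay close together, and the log2 fold change was 2.15 (SE 0.158, adjusted p = 0.00534). Bard1 (ENSMUSG00000026196, chr1:71027498-71103146, minus strand) was at 6.83, 7.16 and 6.38 CPM and at 19.2 and 18.8 CPM, with a log2 fold change of 1.48 (SE 0.187, adjusted p = 0.0146). The groups of Bard1 were as compact as those of Brca1. Brca2 (ENSMUSG00000041147, chr5:150522630-150570329, plus strand) was at 8.45, 5.70 and 8.95 CPM and at 22.1 and 21.7 CPM (1.51, SE 0.242, adjusted p = 0.0287). Palb2 at 0.66 and Brip1 at 0.69 were not called, although both Irf2bp2-KO libraries lay above all controls in each of them.

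The strand exchange group was split. Rad51ap1 (ENSMUSG00000030346, chr6:126923050-126939587, minus strand) was at 3.99, 3.04 and 3.19 CPM in controls and at 13.2 and 15.7 CPM in the knockout (log2 fold change 2.08, SE 0.246, adjusted p = 0.0124). Rad54l (ENSMUSG00000028702, chr4:116094264-116123690, minus strand) was at 5.75, 6.64 and 3.07 CPM and at 20.5 and 23.7 CPM (2.09, SE 0.328, adjusted p = 0.0274), and Lrrc41 on the opposite strand covers 15.4% of its exon bases. In both genes the knockout libraries lay far above the highest control. Rad54b, the other RAD54 protein, was at 1.43, 2.41 and 0.751 CPM and at 5.67 and 6.48 CPM but missed the threshold (1.96, SE 0.472, adjusted p = 0.0942), and it shares 35.8% of its exon bases with Fsbp on the same strand. Rad51b had 9, 8 and 2 counts in controls and 23 and 23 in the knockout, that is 0.243, 0.221 and 0.125 CPM against 0.600 and 0.648 CPM (1.59, SE 0.594, adjusted p = 0.26). The remaining genes of the group had log2 fold changes from -0.19 for Rad52 to 0.78 for Rad51c, and 0 of them were called. Over all genes tested 2.47% were called higher and 0.111% lower.

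Among the resection genes all 6 had both Irf2bp2-KO libraries above all controls (18.2% of all genes tested), and 1 was called (2.47%). Blm (ENSMUSG00000030528, chr7:80454733-80535119, minus strand) was at 19.5, 11.5 and 12.2 CPM in controls and at 40.2 and 36.8 CPM in the knockout (1.42, SE 0.252, adjusted p = 0.0397). Exo1 was at 3.32, 4.12 and 1.94 CPM and at 12.3 and 9.63 CPM, just short of a call (1.80, SE 0.355, adjusted p = 0.0539). The genes of the MRN complex had smaller fold changes. Mre11 had a log2 fold change of 0.24, Rad50 one of 0.26 and Nbn one of 0.24, none of them called.

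Of the Fanconi anemia genes 2 of 10 were called higher, beside 2.47% of all genes tested. Fancd2 (ENSMUSG00000034023, chr6:113531682-113597017, plus strand) was at 5.70, 4.12 and 3.07 CPM in controls and at 18.8 and 15.8 CPM in the knockout (1.997, SE 0.298, adjusted p = 0.0229). Fanca (ENSMUSG00000032815, chr8:123268300-123318576, minus strand) was at 8.07, 8.33 and 4.63 CPM and at 20.3 and 21.2 CPM (1.56, SE 0.282, adjusted p = 0.0419), with Zfp276 on the opposite strand of 10.5% of its exon bases. Fanci, the partner of Fancd2, had a log2 fold change of 1.006 and an adjusted p of 0.0525. Fance, Fancg, Fancl and Fancm overlapped between the groups, with log2 fold changes between -0.08 and 0.45.

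Of the 8 checkpoint genes 0 were called in mouse cells, where 2.47% of all genes tested were called higher and 0.111% lower. Chek1, the kinase that ATR activates, came nearest, with 3.94, 6.11 and 3.32 CPM in controls and 12.6 and 13.0 CPM in the knockout and an adjusted p of 0.0583. Chek2, at 0.66, and Topbp1, at 0.51, had no overlap between the groups but were not called. Atm was at 135, 52.4 and 202 CPM in controls and at 193 and 156 CPM in the knockout, so the spread between the controls was wider than the difference between the groups. Atr, Atrip, Tp53bp1 and Mdc1 overlapped as well. Over all roles, the called genes had control means of 3.41 to 14.4 CPM, a range that also holds members not called, such as Xrcc2 with 5.42, Palb2 with 8.92 and Fancl with 10.5 CPM.

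**Figure D3:**
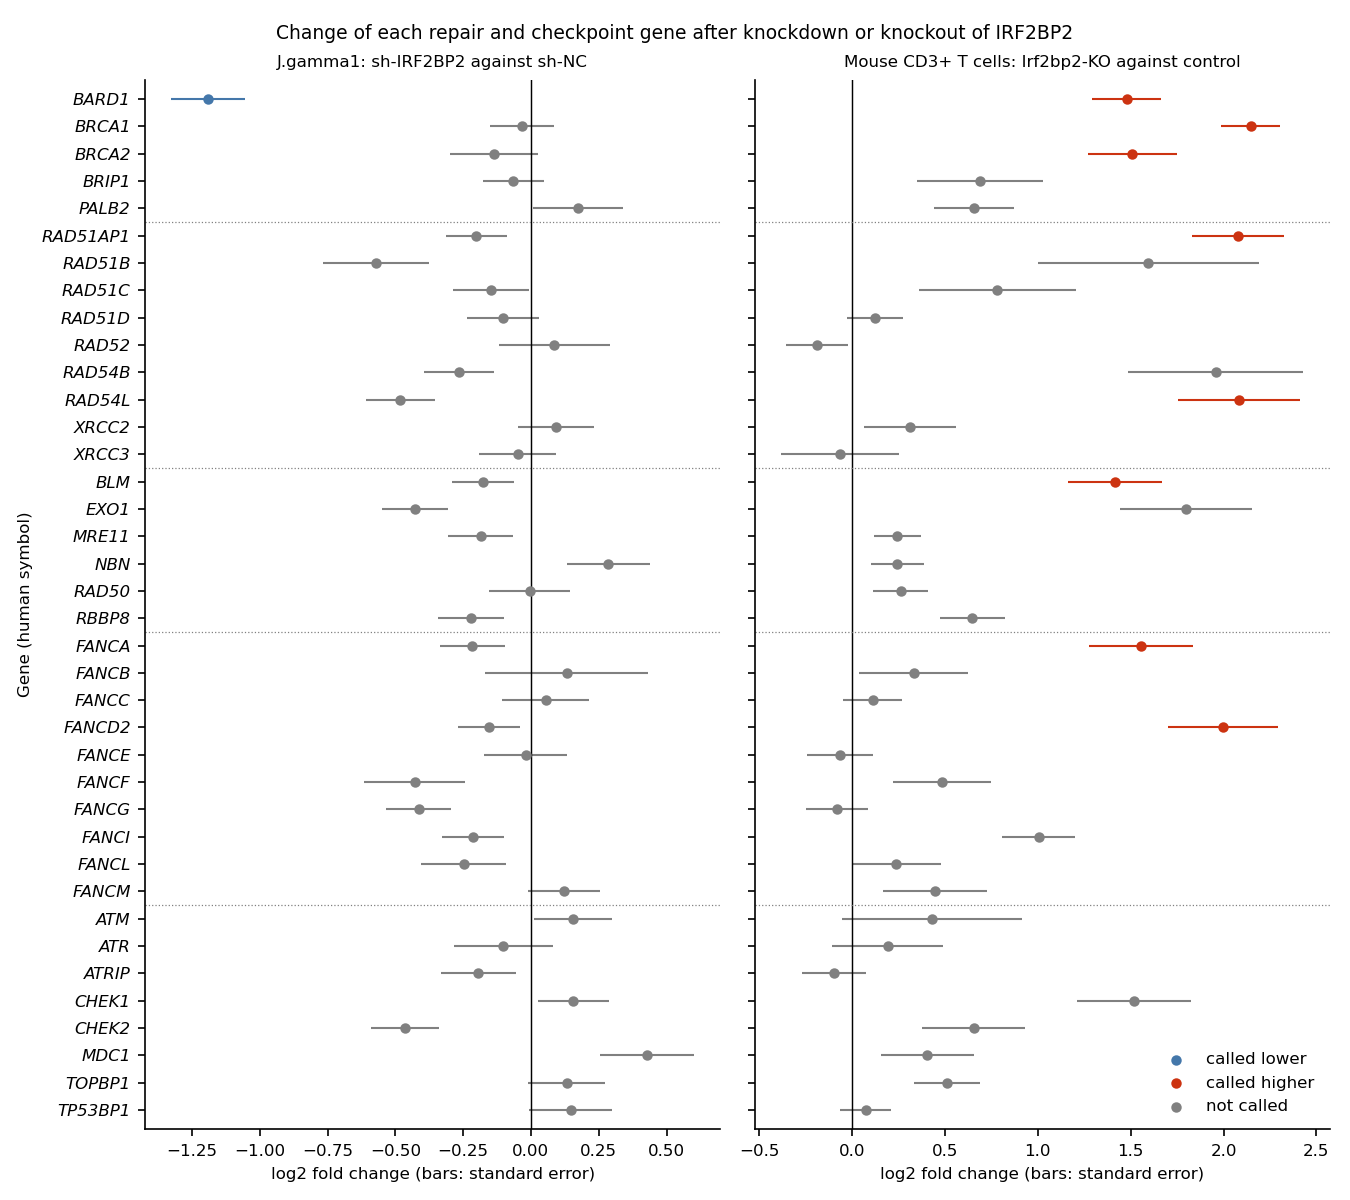
Log2 fold change of each gene with its standard error, in J.gamma1 cells (sh-IRF2BP2 against sh-NC) and in mouse CD3+ T cells (Irf2bp2-KO against control), with called genes in blue (lower) or red (higher) and the others in grey; the axes of the panels differ. BARD1 stands alone at -1.19 in J.gamma1 cells, and the 8 called genes lie between 1.42 and 2.15 in mouse cells, where Chek1, Rad51b, Exo1 and Rad54b, not called, also fall.

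The mouse calls depended on which libraries entered the fit. Without control 1 no member was called (lowest adjusted p 0.0564), and over all genes the number called higher fell to 6. Without Irf2bp2-KO 1 only Brca1 was called (adjusted p = 0.0468), and without Irf2bp2-KO 2 no member was called (lowest adjusted p 0.0849), the lone knockout library then being assumed to vary like the controls. Without control 2, 11 members were called, with 532 genes called higher in all against 379 from all libraries, and without control 3, 7, with 357 in all. The fold changes themselves moved less. Over these 5 fits Brca1 lay between 2.11 and 2.197, Bard1 between 1.43 and 1.53, Rad51ap1 between 1.93 and 2.22, and Fancd2 between 1.81 and 2.26. DESeq2 called 12 members, the 8 named above with Rad54b, Exo1, Fanci and Chek1, where it called 755 genes higher among all tested.

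**Figure D4:**
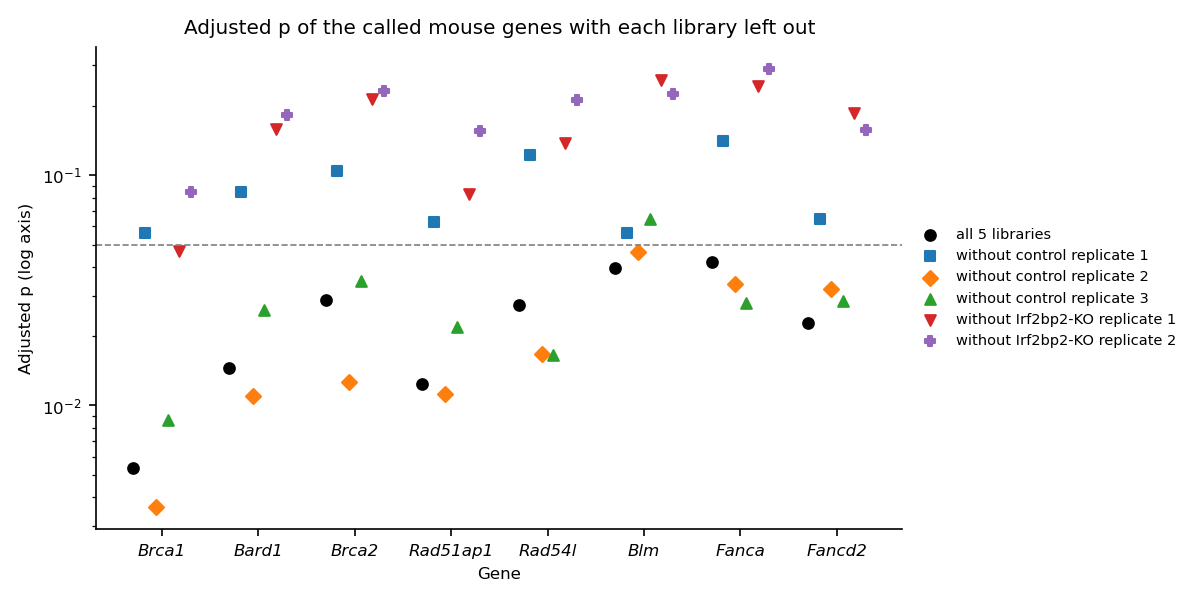
Adjusted p (log axis) of the 8 called mouse genes with all 5 libraries (black points) and with each library left out in turn (coloured symbols), with a dashed line at 0.05. The symbols without control 1 lie above the line for all 8 genes, and Brca1, at 0.0468, is the only gene under it without Irf2bp2-KO 1.

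Control 2 and control 3 differed by gene length. In the longest of 4 bins of exon length, control 2 was lower than the other controls by a median log2 ratio of -0.28 and control 3 higher by 0.26, with the opposite signs in the shortest bin. Atm, Atr and Mdc1, all of the longest bin, were lowest in control 2 as well. With this trend removed, an alternative added after the data were seen, 7 of the 8 members remained called and Fanca did not (1.42, adjusted p = 0.0815).

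Markers of other cells moved in the same comparison. Of 12 measured erythroid markers all 12 had both Irf2bp2-KO libraries above all controls (18.2% of all genes tested). Of these markers 8 were called higher (2.47% of all genes tested), and the median log2 fold change of the 12 was 2.71. Their summed level was 407 to 1199 CPM in controls and 3119 and 4205 CPM in the knockout, and none was at 0 in any library. Of 14 T cell markers 12 were below 0 and 0 were called. In 12 of the 14 both Irf2bp2-KO libraries lay below all controls, where 17.8% of all genes tested did so. Their sum was 7130 to 8247 CPM in controls and 5708 and 5961 CPM in the knockout, with Cd3e at 338, 446 and 390 CPM against 280 and 284 CPM, so that the labelled cell type was present in all 5 libraries. B cell and plasma cell markers (552 to 1274 CPM against 1127 and 1548 CPM) and myeloid markers (35.9 to 411 CPM against 84.7 and 143 CPM) had 0 of 10 and 0 of 9 called. These sums do not show the direction of most markers. Of the B cell and plasma cell markers 7 were below 0 and 3 above, with a median log2 fold change of -1.06. Of the myeloid markers 7 were below 0 and 2 above, with a median of -0.68. The part of these cells in the higher level of the repair genes was not tested.

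Genes of the cell cycle also moved with the members. Of 42 S phase genes, 4 are members. Of the other 38, in mouse cells 12 were called higher and 0 lower, with a median of 0.85. Of 52 G2/M genes 12 were called higher and 0 lower, with a median of 1.57. Over all genes tested in mouse cells 2.47% were called higher and 0.111% lower. In J.gamma1 cells 7 of the same 38 S phase genes were called lower and 0 higher, with a median of -0.32. Of 51 G2/M genes tested 6 were called lower and 1 higher, with a median of -0.18. Over all genes tested in J.gamma1 cells 5.01% were called lower and 5.46% higher. In each table the median of the members, 0.50 and -0.12, lay on the same side of 0 as those of both cell cycle lists and was smaller in size. How far these shifts reflect the share of cycling cells was not tested.

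The wider repair pathway was covered by a list of 61 further genes. In mouse cells 59 of them were tested, 3 were called higher (2.47% of all genes tested) and 0 lower (0.111%), and the median was 0.10. The 3 were Clspn, the mediator that couples ATR to CHEK1 (2.43), Fignl1, an ATPase of recombination (2.21), and Dna2, a resection nuclease (2.09). In J.gamma1 cells 5 of 61 were called lower (5.01% of all genes tested) and 1 higher (5.46%), with a median of 0.00. The 5 were RPA3 (-0.53), a subunit of the protein that coats single-stranded DNA, MND1 (-0.55), a cofactor of meiotic recombination, MAD2L2 (-0.59), a shieldin subunit, RHNO1 (-0.55), a partner of the 9-1-1 clamp, and WEE1 (-0.52), the kinase that holds CDK1 inactive. RNF168 (0.54), the ligase that marks chromatin at breaks, was called higher.

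**Figure D5:**
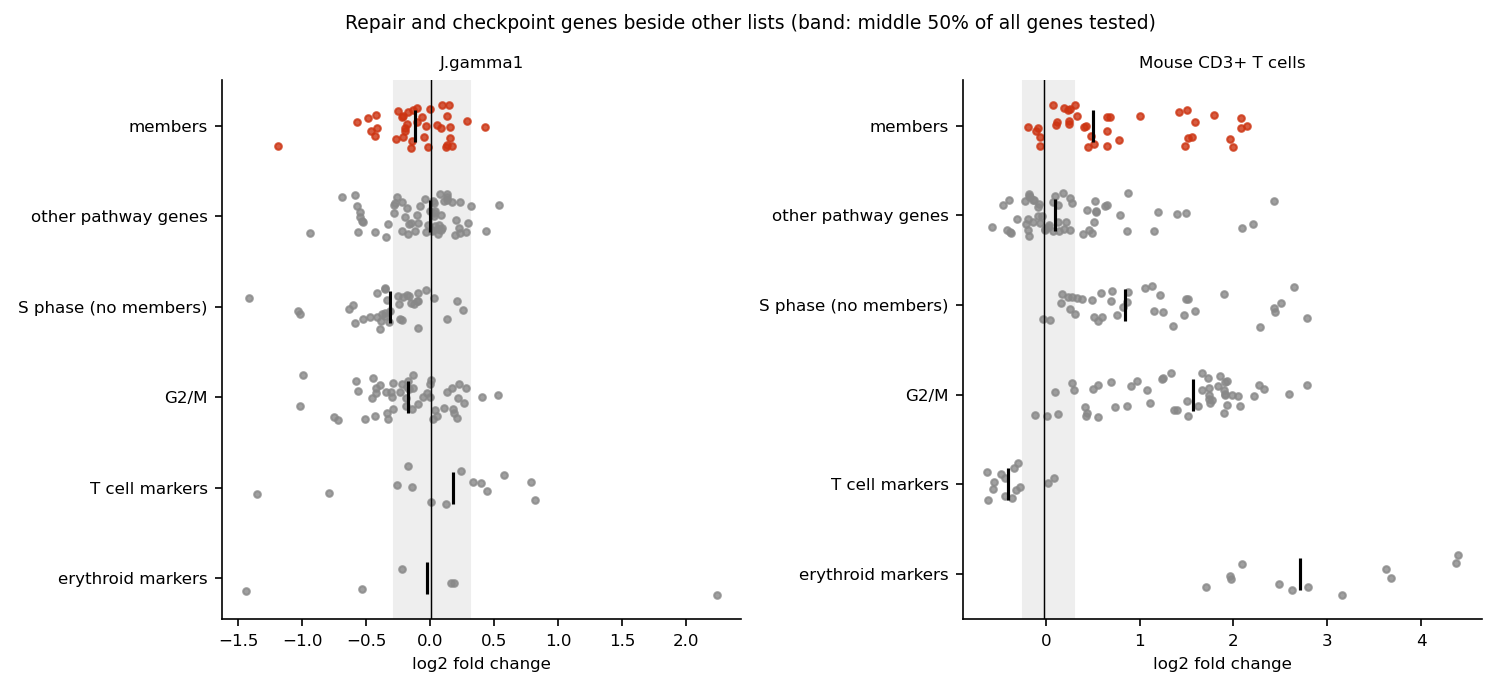
Log2 fold changes of the 38 repair genes (members, red) and of the genes of other lists (grey), with 1 point per gene, a thick bar at the median of each list, a line at the median of all genes tested and a band over the middle 50% of them; the axes of the panels differ. In mouse cells the erythroid markers have a median of 2.71 and the T cell markers one of -0.40, while the 38 repair genes have a median of 0.50.

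The promoters were searched for letters that E2F factors are known to bind, namely TTTCCCGC, TTTGGCGC, TTTCGCGC, TTTGCCGC, TTCCCGCC and TTGGCGCC on both strands, between 250 bases before and 50 after the start. Some of these words overlap each other. In human windows cut from hg38 at the starts of GENCODE 44, 13 of 38 members (34.2%) hold at least 1 such word, against 9.29% of all genes tested with a window. In mouse windows of RefSeq (GRCm38.p6), which has an entry for 30 members, 12 (40%) hold one, against 8.98% of all genes tested with a window. The human share over all genes includes genes without an annotated 3' UTR, whereas all 38 members have one. Of 15819 human genes tested 12573 have a 3' UTR of at least 50 bases. The mouse share is over the 10540 genes tested that have an entry. Members and all genes are thus unlike sets here. Of the 7 called mouse members with an entry, 4 hold a word, and BARD1, the called human member, holds none. The sites of the 4 called mouse members that hold a word, and that of human RAD54L, the human member with a word that came nearest to a call, are printed with the word in capitals.
Brca1: ggctagcgctaGGCGCCAAgcggccggttt
Bard1: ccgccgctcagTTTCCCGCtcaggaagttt
Brca2: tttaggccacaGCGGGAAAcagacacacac
Rad51ap1: gtctggttttcGGCGGGAAttgaaaccgcc
RAD54L: gcgcagcactaTTCCCGCCtcttccttggg
They lie at chr11:101551917-101551946 (minus strand), chr1:71103163-71103192 (minus strand), chr5:150522442-150522471 (plus strand) and chr6:126939558-126939587 (minus strand) in mouse and at chr1:46247628-46247657 (plus strand) in human. The box CCAAT, on both strands, is in 17 of 38 human windows (44.7%, against 35.6% of all) and in 19 of 30 mouse windows (63.3%, against 42.9%). The cell cycle words TTTGAA and TTCGAA are in 4 of 38 (10.5%, against 12.4%) and in 3 of 30 (10%, against 17.0%). Mouse members without such an E2F word include Blm, Fanca and Rad54l, which were called, and 8 of the 23 members with an entry that were not called hold one.

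Set side by side, the signs in both tables differed for most members. With 26 members below 0 in J.gamma1 cells and 33 above 0 in mouse cells, such a majority would arise without a link between the tables. No share over all genes was worked out, and several J.gamma1 values lay near 0 and changed sign without 1 library. By the sign of the log2 fold change, 22 of 38 were below 0 in J.gamma1 cells and above 0 in mouse cells, 11 were above 0 in both, 4 were below 0 in both and 1, RAD52 or Rad52 (0.09 and -0.19), was above 0 in J.gamma1 cells and below 0 in mouse cells. BARD1 was the only gene called in both tables, lower in J.gamma1 cells (-1.19) and higher in mouse cells (1.48). BRCA1 changed in mouse cells (2.15) and had -0.03 in J.gamma1 cells. The tables differ in species, cell type and the way IRF2BP2 was reduced, and the difference between them was not tested.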

How the data were processed

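RNA-seq of J.gamma1 cells and of magnetically sorted mouse splenic CD3+ T cells was analysed. The authors aligned paired reads with HISAT2 2.2.0, to hg38 and mm10 per the labels, and estimated abundance with StringTie. The deposited values are raw counts, whole numbers for each library and Ensembl identifier. How the counts were made from StringTie's output, and with which strand setting, is not given in the sources used here. Counts divided by 2 were therefore an alternative, since a read length set wrongly there would scale all counts.

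Rows were restricted to genes of GENCODE 44 (human) and M21 (mouse), which held at least 97.9% of the counts of each library. Each table was filtered (filterByExpr), scaled by TMM and tested on its own by the quasi-likelihood test of edgeR 4.0.16 (glmQLFit, glmQLFTest; R 4.3.3), with the group as the sole term, 2 against 2 libraries in J.gamma1 cells and 2 against 3 in mouse cells. Adjustment was by Benjamini-Hochberg over the 15819 human or 15350 mouse genes tested. Each SE was worked out as the size of the log2 fold change over the square root of the F statistic of the quasi-likelihood test. The biological coefficient of variation was 0.165 and 0.271, with 2 and 3 residual degrees of freedom. Libraries of a group differed beyond sampling noise, the lowest chi-square per gene being 19.5, and each was 1 replicate. A value of 3 counts, the most that a count of 0 allows, is 0.0783 to 0.188 CPM, and this covers counting error only.

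The members and all lists were chosen with earlier results of these data known. All members could be named. Full values are given for members called in either table and for the 3 largest fold changes not called in each; other values serve context. The other settings were DESeq2 1.42.0, scaling by RLE or the upper quartile, other filters and fold thresholds, all rows, a replicate block, leaving out each library and, added after the data were seen, removal of a trend on exon length. On simulated counts with 200 genes changed by 1.5 on the log2 scale, edgeR recovered 199 and made 10 false calls for J.gamma1 cells (15526 genes), and recovered 141 and made 4 for mouse cells (15019 genes). DESeq2 recovered 193 and 155 (15819 and 15350 genes) and made 11 and 14. The changed genes were drawn from genes above a minimum mean count. All genes were given the common biological coefficient of variation, and no trend on length was put in. These numbers thus do not give the recovery of members with low counts. Words were searched in Python 3.11.15, in 3' UTRs of at least 50 bases. Some items are not reported here.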

Additional observations from a re-analysis of the deposited data

Results flagged for a closer look

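In 15 members both sh-IRF2BP2 libraries lay below both sh-NC libraries while both Irf2bp2-KO libraries lay above all 3 controls. The share of all genes with both patterns was not worked out, and some of these changes are small. The difference between the tables was not tested, and 28.7% of human genes tested were lower without overlap and 18.2% of mouse genes higher. The log2 fold changes, with J.gamma1 cells before mouse cells, were -1.19 and 1.48 for BARD1 and Bard1 and -0.065 and 0.69 for BRIP1 and Brip1. Of the strand exchange group, they were -0.57 and 1.59 for RAD51B and Rad51b, -0.20 and 2.08 for RAD51AP1 and Rad51ap1, -0.48 and 2.09 for RAD54L and Rad54l, and -0.27 and 1.96 for RAD54B and Rad54b. Of the resection genes, they were -0.22 and 0.65 for RBBP8 and Rbbp8, -0.18 and 0.24 for MRE11 and Mre11, -0.18 and 1.42 for BLM and Blm, and -0.43 and 1.80 for EXO1 and Exo1. Of the Fanconi anemia genes, they were -0.22 and 1.56 for FANCA and Fanca, -0.15 and 1.997 for FANCD2 and Fancd2, -0.43 and 0.48 for FANCF and Fancf, and -0.21 and 1.006 for FANCI and Fanci. For the checkpoint kinase CHEK2 and Chek2 they were -0.46 and 0.66. Only BARD1 was called in J.gamma1 cells.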

How the results depend on the processing

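In J.gamma1 cells the members called lower were 1 under all settings but 4, namely upper-quartile scaling (3), the replicate block (2, BARD1 and RAD51B), no fold threshold (2) and the fits without 1 library (1 to 4, the highest without sh-NC 1), and 0 were called higher under any setting. The median log2 fold change of the members was -0.10 to -0.18 without 1 library and -0.22 with the length trend removed. In mouse cells the members called higher were 7 to 12 under the other settings and 0 to 11 without 1 library, with 0 without control 1 or Irf2bp2-KO 2 and 1 without Irf2bp2-KO 1. Their median was 0.46 to 0.60 without 1 library, 0.62 with the replicate block and 0.43 with the length trend removed. The groups share only 2 replicate numbers, which the labels tie to no batch (correlations of deviations 0.225 in J.gamma1 cells and 0.151 and -0.161 in mouse cells), and the block left the mouse count at 8. Members near 0 changed sign: RAD50 (0.0057) and Fancg (0.0072) with the block, and FANCC (-0.12), FANCM (-0.061), ATM (-0.10), Xrcc3 (0.010), Atr (-0.013) and Tp53bp1 (-0.11) with the length trend removed. Without 1 library the ranges of those that changed sign were -0.10 to 0.019 for BRCA1, -0.35 to 0.11 for BRCA2, -0.036 to 0.41 for PALB2, -0.056 to 0.25 for XRCC2, -0.24 to 0.10 for XRCC3, -0.15 to 0.26 for RAD52, -0.18 to 0.19 for RAD50, -0.27 to 0.68 for FANCB, -0.11 to 0.18 for FANCC, -0.11 to 0.071 for FANCE, -0.00029 to 0.32 for ATM, -0.36 to 0.20 for ATR, -0.0081 to 0.28 for TOPBP1, -0.046 to 0.36 for TP53BP1, -0.24 to 0.15 for Xrcc3, -0.19 to 0.0031 for Fancg, -0.053 to 0.37 for Atr and -0.0022 to 0.14 for Tp53bp1. The cause of these changes was not tested. Of the values for single members under the alternatives other than the fold thresholds, 465 of J.gamma1 cells kept direction and side of the threshold, 23 changed sign and 6 passed it newly, while in mouse cells 483 kept both, 9 changed sign, 14 passed it newly and 25 lost it.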
